A study of Mus musculus with 2 samples.

Results

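Divergent protein-coding promoters are places where a gene on the minus strand and a gene on the plus strand start close together and run away from each other. A single stretch of DNA can then serve both. Here they were located with GENCODE vM21, taking the most upstream annotated start of each of 21938 protein-coding genes and joining starts at most 1000 bases apart. This gave 755 divergent pairs, which hold 1489 genes or 6.79% of the protein-coding genes. A divergent promoter peak is a DNase peak of replicate 1 that overlapped a peak of replicate 2 by at least 1 base and that overlapped the span between the starts of such a pair. There were 711 such peaks among 30382 shared peaks and 47198 replicate 1 peaks in all. The shared peaks were 64.4% of the replicate 1 peaks.

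The data come from DNase-seq, in which the enzyme DNase I cuts DNA that is not wrapped up by nucleosomes and the cut ends are sequenced. Both libraries were made from liver of mouse embryos at 13.5 days of age. All the embryos were of strain C57BL/6N,129 and carried both the LCR deletion and the HET globin mutation that the labels name without further detail. The 2 libraries are biological replicates 1 and 2 of that single group, from different biosamples that share a donor identifier, with sex not collected and with no control group. Regions of the genome are not replicates, so values are given for each library side by side and no test between regions was made. Replicate 1 had 47198 peaks and replicate 2 had 36523. Each peak carries the authors' normalised signal, called its value below, and the sources used here do not say how values compare between libraries. As a check of the labelled tissue, 28 of 36 erythroid marker genes had a shared peak within 1000 bases of their start, against 49.3% of all protein-coding genes. Only 4 of 26 hepatoblast and hepatocyte markers did, namely Apob, Cebpa, Foxa3 and Trf. Alb and Afp were not among them. In the Foxa3 span the shared peak covered, in replicate 1, the start of its partner Sympk and not that of Foxa3. Of the lists for other cells, 4 of 9 neuronal and glial markers had one, namely Map2, Snap25, Syn1 and the glial gene Gfap. So did 2 of 9 stellate and mesenchymal, 1 of 9 megakaryocyte and 1 of 8 endothelial markers. Of lymphoid markers 1 of 9 did, and of macrophage and myeloid markers 0 of 13.

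In a divergent promoter each gene has its own start site and core promoter, and the upstream regions of both face each other or overlap. Many such promoters in mammals are rich in CpG dinucleotides, lack a TATA box and drive genes of general cell upkeep, such as those for DNA repair, mitochondria and chromatin. Proteins often found at promoters of this kind are the ETS family with NRF1, which acts on genes of mitochondria, NF-Y, which binds the CCAAT box, YY1, which often sits just downstream of a start, and the SP and KLF family, which binds GC boxes. At this stage of life red cells are formed mainly in the liver.

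The sequences below are the parts of replicate 1 peaks that lie strictly between the paired starts, so none is transcribed in the annotation of these genes as leader sequence. They were read from RefSeq's GRCm38.p6 assembly, the mm10 build of the files, which is of strain C57BL/6J and not of the mice studied. Capitals mark exact matches, on either strand, to the words listed further on. The first set comes from some of the divergent promoters with the highest values. Of the words searched, these hold from the GC box word alone to a CRE word and the CCAAT box word side by side. CCAAT boxes with other flanking bases are present but not marked. Others of the highest, namely Nfya/Oard1, Fbh1/Ankrd16, Dnajb4/Fubp1 and Agtpbp1/Naa35, held none of the words in this stretch.

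Pdhx/Apip (chr2:103073514-103073674, plus strand): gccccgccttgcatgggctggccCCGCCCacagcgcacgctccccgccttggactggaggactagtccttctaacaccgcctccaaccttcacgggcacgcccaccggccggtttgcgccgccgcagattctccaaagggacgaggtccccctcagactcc
Tecr/Dnajb1 (chr8:83607972-83608192, plus strand): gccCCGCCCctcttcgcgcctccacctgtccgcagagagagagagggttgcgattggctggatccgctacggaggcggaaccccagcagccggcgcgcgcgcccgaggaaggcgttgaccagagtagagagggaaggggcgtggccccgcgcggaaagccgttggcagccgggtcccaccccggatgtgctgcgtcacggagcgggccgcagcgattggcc
Tepsin/Ndufaf8 (chr11:120098732-120098927, plus strand): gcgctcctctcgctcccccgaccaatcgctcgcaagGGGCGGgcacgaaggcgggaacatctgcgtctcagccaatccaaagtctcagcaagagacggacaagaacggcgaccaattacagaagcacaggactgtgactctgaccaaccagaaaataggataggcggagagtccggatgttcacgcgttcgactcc
Dtl/Ints7 (chr1:191575545-191575635, plus strand): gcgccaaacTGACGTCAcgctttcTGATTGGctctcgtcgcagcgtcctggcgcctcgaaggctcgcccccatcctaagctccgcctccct

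The second set shows the words that the counts below turn on. Cct5/Fam173b holds the NRF1 word on both strands at once, Slc39a7/Rxrb holds it beside a GC box, and Tmem209/Ssmem1 holds an ETS word next to a ZBTB33 word. Mcm4/Prkdc holds an ETS word and a CCAAT box, Ptcd2/Mrps27 an ETS word alone, Ncapd2/Mrpl51 a CCAAT box with a GC box, and Abhd12/Gins1 a YY1 word between 2 GC boxes on opposite strands. Urod/Hectd3 is the divergent promoter of the erythroid list. Hist1h2an/Hist1h2bp stands for the paired histone genes and is poorer in G and C than the rest, at 42.6%.

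Cct5/Fam173b (chr15:31601805-31601851, plus strand): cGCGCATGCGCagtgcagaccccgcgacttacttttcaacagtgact
Slc39a7/Rxrb (chr17:34031683-34031811, plus strand): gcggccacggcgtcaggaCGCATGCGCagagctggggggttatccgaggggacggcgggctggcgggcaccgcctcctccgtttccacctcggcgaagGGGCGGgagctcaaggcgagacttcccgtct
Tmem209/Ssmem1 (chr6:30509784-30509848, plus strand): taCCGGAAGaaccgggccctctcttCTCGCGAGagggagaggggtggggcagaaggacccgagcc
Mcm4/Prkdc (chr16:15637401-15637620, plus strand): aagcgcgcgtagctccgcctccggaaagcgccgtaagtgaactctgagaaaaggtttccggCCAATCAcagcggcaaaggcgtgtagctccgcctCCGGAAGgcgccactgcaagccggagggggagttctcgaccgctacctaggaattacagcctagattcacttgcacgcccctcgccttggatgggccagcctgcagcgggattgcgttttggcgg
Ptcd2/Mrps27 (chr13:99344706-99344785, plus strand): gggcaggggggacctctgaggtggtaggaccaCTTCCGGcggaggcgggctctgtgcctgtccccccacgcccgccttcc
Ncapd2/Mrpl51 (chr6:125191702-125191800, plus strand): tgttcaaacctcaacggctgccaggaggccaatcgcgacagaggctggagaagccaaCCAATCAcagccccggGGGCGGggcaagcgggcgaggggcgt
Abhd12/Gins1 (chr2:150904742-150904860, plus strand): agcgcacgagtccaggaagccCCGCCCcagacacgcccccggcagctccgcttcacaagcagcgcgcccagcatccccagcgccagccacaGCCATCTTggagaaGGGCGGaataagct
Urod/Hectd3 (chr4:116994414-116994540, plus strand): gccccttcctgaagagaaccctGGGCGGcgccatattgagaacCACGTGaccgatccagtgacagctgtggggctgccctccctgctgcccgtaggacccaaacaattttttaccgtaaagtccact
Hist1h2an/Hist1h2bp (chr13:21787219-21787460, plus strand): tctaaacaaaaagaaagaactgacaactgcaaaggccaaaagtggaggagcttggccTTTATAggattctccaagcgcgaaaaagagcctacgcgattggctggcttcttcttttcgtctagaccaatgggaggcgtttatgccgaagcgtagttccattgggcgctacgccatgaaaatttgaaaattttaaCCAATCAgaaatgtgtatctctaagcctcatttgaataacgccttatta

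Nearly 9 in 10 divergent spans held a shared peak. A shared peak overlapped 666 of the 755 spans, or 88.2%, and such spans are called open. The replicate 2 peak that a shared peak overlaps need not itself reach the span. Some open spans thus held no replicate 2 peak between the starts. Taken alone, replicate 1 had a peak in 89.7% of spans and replicate 2 in 88.2%. The spans with a replicate 2 peak include 15 with no replicate 1 peak. For comparison, a one-way start is that of a protein-coding gene in no divergent pair and with no opposite protein-coding start within 1000 bases on either side. Of 19556 such starts, 36.9% had a shared peak within the 250 bases upstream. Among one-way starts with a non-coding gene starting the other way within 1000 bases upstream, 69.9% of 871 had one, and among the rest 35.4% did. Olfactory and vomeronasal receptor genes and predicted genes are many among the one-way genes. Without them 43.3% of the one-way starts and 89.5% of the divergent spans had a shared peak. The units compared differ. A span counts as open by a peak at either of 2 genes and is up to 987 bases long. A one-way start has 1 gene and 250 bases. Each gene was also given 1000 bases on both sides of its start. A shared peak then lay nearby for 92.7% of the genes in divergent pairs and 44.2% of the one-way genes. For paired genes this window takes in the start of the partner as well.

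The 89 spans without a shared peak fell into several kinds. In 63 neither library had a peak, and 52 of these also had no stretch of listed false discovery rate in either library. Among the 63 were promoters of genes known for other tissues, such as Col4a4/Col4a3, which encode basement membrane collagens, Kirrel2/Nphs1, which encode proteins of the kidney filter, Duox2/Duoxa2, the thyroid oxidase and its maturation factor, and Patl2/Terb2 of germ cells. These 4 pairs were chosen after their values were seen. For 45 of the 63 spans, no peak of either library lay within 1000 bases. For 14 a shared peak did lie within 1000 bases, and in these the annotated most upstream starts and the open site differ in place. The span of Phtf2/Tmem60 lay 30 bases from a replicate 1 peak of value 20.6 and 50 bases from a replicate 2 peak of 7.31. The span of Dad1/Abhd4, whose Dad1 is a subunit of oligosaccharyltransferase, lay 84 bases from peaks of 13.4 and 5.89.

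Among the spans without a shared peak, 25 held a peak of 1 library alone, 15 of replicate 2 and 10 of replicate 1. All 15 spans with a replicate 2 peak alone had a shared peak within 1000 bases, and 9 had one within 100. In Cib1/Gdpgp1, whose span is 52 bases long, the replicate 2 peak had a value of 8.72, and a replicate 1 peak of 17.5 ended 33 bases from the span. In Mrpl54/Apba3, the span was 26 bases, the replicate 2 value 7.79 and the nearest replicate 1 peak, of 10.4, was 194 bases away. Of the 10 spans with a replicate 1 peak alone, 5 had a shared peak within 1000 bases. In Vezt/Fgd6 each library had a peak in the span, of 16.1 and 5.60, but the peaks did not overlap.

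Divergent promoter peaks were high. Their median value was 8.39 in replicate 1 and 4.80 in replicate 2, with middle 50% of 5.35 to 13.1 and 3.35 to 6.43. One-way promoter peaks, 7379 shared peaks that overlapped the 250 bases upstream of a one-way start, had medians of 5.42 and 3.49. The divergent median was thus 1.55 and 1.37 times the one-way median, a log2 ratio of 0.54 ± 0.12 (SD, n = 2 libraries). Against the 628 one-way peaks with a non-coding start the other way, the fold was lower, at 1.27 and 1.15. Against 14430 distal peaks, more than 1000 bases from any gene start, it was 5.67 and 4.27. The median divergent peak stood at the 91.5th percentile of all peaks in replicate 1 and at the 89.1st in replicate 2.

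**Figure D1:**
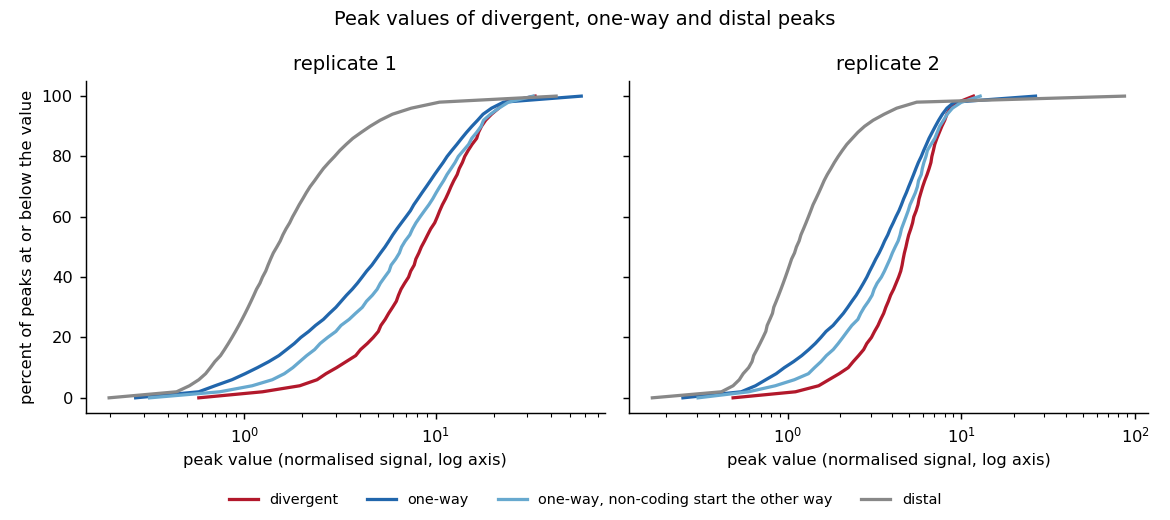
Percent of peaks (vertical axis) at or below each peak value (horizontal log axis, the authors' normalised signal) in each library, for divergent, one-way, one-way with a non-coding start the other way, and distal peaks. The divergent curve lies to the right of the others through most of its range, with medians of 8.39 and 4.80 against 5.42 and 3.49 for one-way peaks, while the highest one-way and distal peaks exceed the highest divergent peak.

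The highest divergent peak reached 32.9 in replicate 1 and 11.7 in replicate 2. One-way peaks, over 10 times as many, reached 57.3 and 26.7, and the 628 with a non-coding start the other way reached 32.2 and 12.8. At the low end, 98.0% and 96.9% of divergent peaks had a value above the median of all peaks of their library, against 89.3% and 85.5% of one-way peaks. The shorter list of each library held 99.2% and 98.0% of the divergent peaks. Median widths were 240 and 280 bases for both divergent and one-way peaks, while the lower quartiles were 220 and 240 for divergent and 200 and 220 for one-way peaks. Within quartiles of peak value divergent peaks were wider by 13.25 and 6.875 bases. Distal peaks were narrower, at 200 and 197 bases.

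The highest peak lay between Pdhx, a binding component of the pyruvate dehydrogenase complex, and Apip, an enzyme of methionine salvage. Its values were 32.9 and 11.7, and it held 4 footprints in each library. Footprints are short stretches inside open chromatin that the authors called as protected from cutting. The peak between Nfya, the DNA-contacting subunit of NF-Y, and Oard1 followed in replicate 1 with 29.4, and had 10.7 in replicate 2. Fam53a/Gm9903 had 28.2 and 11.2. Tecr/Dnajb1, an enzyme of very long chain fatty acid synthesis and a heat shock protein of the Hsp40 family, had 27.9 and 11.0. The other members of the 10 highest were Fbh1/Ankrd16 (27.3 and 10.3), Tepsin/Ndufaf8 (24.8 and 10.8), Senp8/Myo9a (21.9 and 10.2), Dnajb4/Fubp1 (25.7 and 8.93), Agtpbp1/Naa35 (23.5 and 9.25) and Dtl/Ints7 (22.1 and 9.30). Both Hsp40 genes among these share a promoter with a gene of another function. In every library all 10 stood above the 99th percentile of peak values, the lowest being 99.2 for Dnajb4/Fubp1 in replicate 2.

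The lowest 5 divergent peaks were far below these. Nrg4/Tmem266 had 0.579 and 0.499, and Gm9922/Lmo7 0.616 and 0.485. Sgce/Peg10, a pair of imprinted genes expressed from the paternal copy, had 0.628 and 0.638 and held no footprint in either library. Ddx25/Pus3 had 0.776 and 0.596, and Bend6/Dst 0.801 and 0.610. In replicate 2 none of these 5 peaks held a footprint.

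Values ranked alike in both libraries, with a Spearman correlation of 0.877 across the 711 peaks. It was 0.947 in one-way, 0.932 in all shared and 0.876 in distal peaks. These correlations are across peaks of 2 libraries and describe them only. The log2 ratio of replicate 2 to replicate 1 had a median of -0.85, against -0.68 in one-way and -0.45 in all shared peaks. In the lowest quartile of divergent peaks by replicate 1 value the median values were 3.52 and 2.50 and the median of the peaks' own log2 ratios was -0.38. In the highest quartile the median values were 16.5 and 7.15 and the median log2 ratio was -1.25. These quartiles are cut on the replicate 1 value, which is also the denominator of the ratio. When the median ratio of shared peaks of like height was taken off, the divergent peaks centred on 0.00, with a middle 50% of -0.25 to 0.26.

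**Figure D2:**
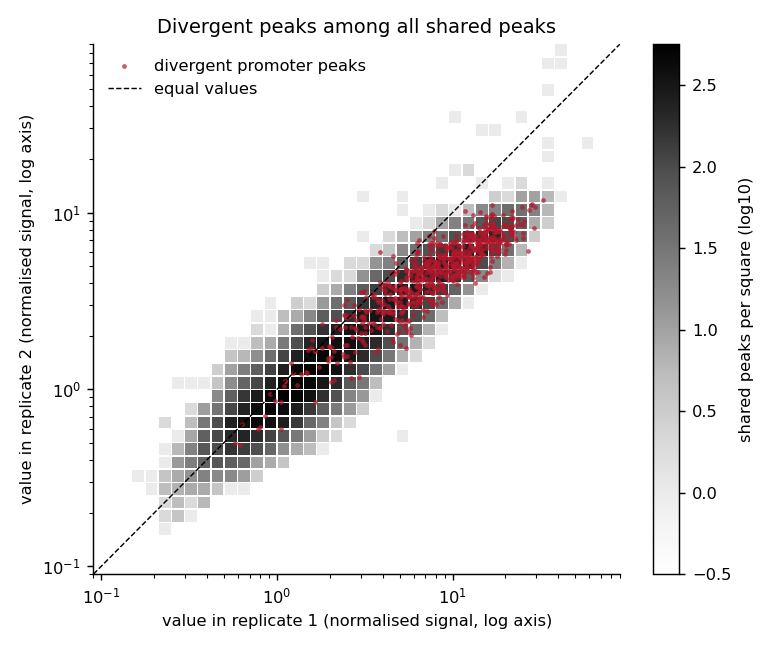
Value in replicate 2 (vertical log axis) against replicate 1 (horizontal log axis) for the 711 divergent promoter peaks (red points) over the number of all 30382 shared peaks per square (grey). The divergent points follow the body of the shared peaks at its high end, and 95.4% of them lie below the dashed line of equal values.

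After that adjustment, the peaks lowest in replicate 2 were Mospd2/Fancb (5.43 and 1.71), Lrrc63/Lcp1 (5.04 and 1.79), Ccdc146/Fam185a (5.79 and 2.02), Slc25a27/Cyp39a1 (2.93 and 1.18) and Sptbn4/Blvrb (26.8 and 6.09). Their adjusted log2 ratios ran from -1.13 to -0.88. Lcp1 is an actin bundling protein of blood cells, and Blvrb, biliverdin reductase B, is abundant in red cells. Fancb acts in the Fanconi anaemia pathway of DNA crosslink repair. The peaks highest in replicate 2 were Sqstm1/Mgat4b (3.88 and 5.95), Brca1/Nbr1 (4.60 and 5.68), Dcun1d2/Tmco3 (7.82 and 7.87), Hps5/Gtf2h1 (6.46 and 7.01) and Srsf7/Ttc39d (11.8 and 10.1), with adjusted ratios of 0.95 to 1.28. With 1 library on each side these differences have no error of their own.

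The peaks sat on and around the midpoint between the starts. The centre of a peak lay a median of 41.5 bases from the midpoint in replicate 1 and 60.5 in replicate 2, or 51.0 ± 13.4 (SD, n = 2). It leaned to neither gene, with median signed offsets of 1 and 0.5 bases. A peak covered both starts in 56.3% and 59.8% of cases, the minus-strand start alone in 18.6% and 17.3%, the plus-strand start alone in 21.1% and 18.7%, and neither in 4.08% and 4.22%. Peaks reached a median of 64 bases into the minus-strand gene and 68 into the plus-strand gene in replicate 1, and 83 and 85 in replicate 2.

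The reach of a peak went with the distance between the starts. The median distance was 129 bases, with a middle 50% of 66.5 to 240, and 82.0% of pairs had starts at most 300 bases apart. In pairs at most 100 bases apart, 1 peak covered both starts in 94.9% and 91.7% of cases. That share was 59.4% and 68.0% from there up to 200 bases, 29.3% and 30.3% up to 300, 5.88% and 24.7% up to 500, and 0 and 2.63% beyond 500. In its place the span came to hold separate peaks. Of open spans at most 100 bases long 0.353% held 2 or more shared peaks, and this rose through 2.26%, 12.1% and 37.1% to 45.3% in spans over 500 bases. In all, 63 spans held 2 or 3 shared peaks. The share of spans open was 90.4%, 85.9%, 91.0%, 93.9% and 75.7% across the same 5 classes of distance, lowest for the longest spans. Median values changed less, from 7.84 and 4.69 in the shortest spans to 9.52 and 5.004 in the next class and 7.29 and 4.21 beyond 500.

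**Figure D3:**
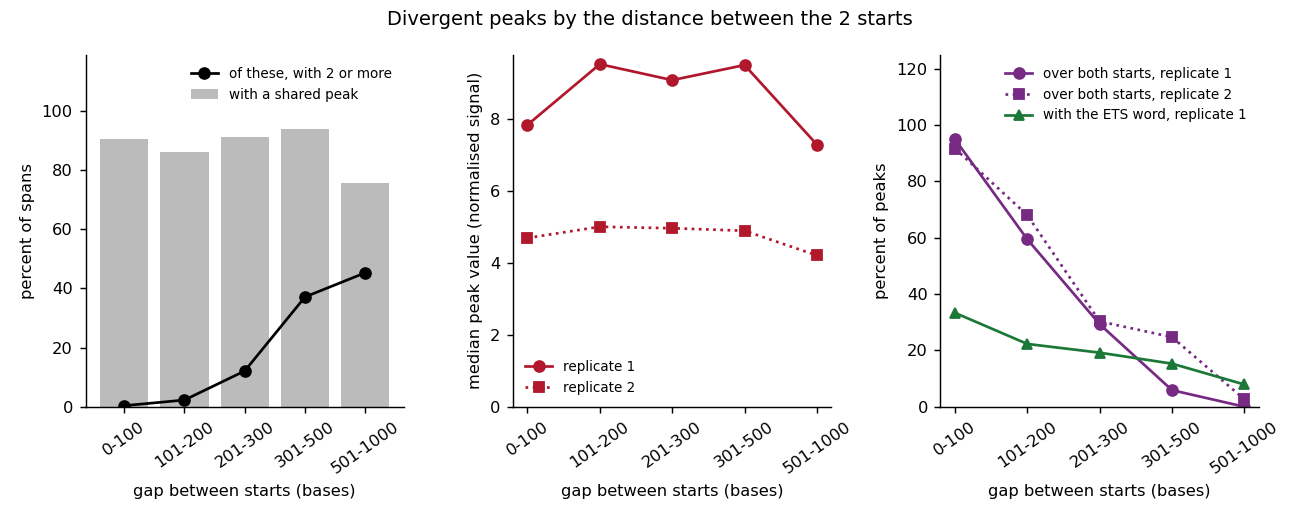
Divergent promoters in 5 classes of the gap between starts (horizontal axes, bases): percent of spans with a shared peak (bars) and, of these, with 2 or more (points), median peak value in each library, and percent of peaks that cover both starts in each library or hold the ETS word. Peaks over both starts give way to separate peaks as the gap grows, from 0.353% of open spans with 2 or more peaks to 45.3%.

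The long spans show how unequal both sides could be. Smim7 and Tmem38a start 967 bases apart, and the peak at Smim7, with a centre 82 bases from its start, had 13.1 and 6.32. The peak over the Tmem38a start, a potassium channel gene of the endoplasmic reticulum of muscle, had 1.95 and 1.497. Mrpl41 had 12.6 and 6.46 and Pnpla7, on the other side of 935 bases, 4.25 and 2.15. Btf3l4/Txndc12, with the longest gap of 987 bases, held 3 shared peaks, of 7.33 and 4.71 near Btf3l4, 2.11 and 1.65 near Txndc12, and 1.65 in both libraries between them. The last 2 of these share a single replicate 2 peak. In these 3 pairs the higher side was the same in both libraries.

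The limit of 1000 bases falls in a thin part of the distribution. Just inside it, besides 2 of the pairs above, was Asphd1/Sez6l2, 981 bases apart, with 5.64 and 3.42. Just outside, Gpr108/Trip10, 1009 bases apart, had 13.6 and 6.49, Sgsm2/Tsr1 (1011) 4.83 and 2.94, and Dirc2/Hspbap1 (1019) 5.59 and 4.02, while Serpina7/4930513O06Rik (1007) and Ppt2/Prrt1 (1023) had no shared peak between the starts.

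Averaged over open spans, the open stretch was narrow and even on both sides. At the midpoint 82.4% of spans were under a peak in replicate 1 and 83.03% in replicate 2. At 100 bases to the minus-strand side the shares were 68.5% and 73.3% and to the plus-strand side 67.6% and 70.3%. At 200 bases they were 21.8% and 35.4% on the minus side, and 23.9% and 34.7% on the plus side. Footprints were most frequent in the middle, and so was peak cover. Between 50 bases either side of the midpoint 33.0% and 24.8% of positions were under a footprint. From 50 to 200 bases out the shares were 18.1% and 12.5% on the minus side and 19.9% and 14.5% on the plus side. The excess of G over C on the plus strand, as (G - C)/(G + C), was -0.09 from 200 to 50 bases on the minus side, 0.00 within 50 bases of the midpoint and 0.09 from 50 to 200 bases on the plus side. These are averages over all open spans, and in the long spans these distances lie between the starts.

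**Figure D4:**
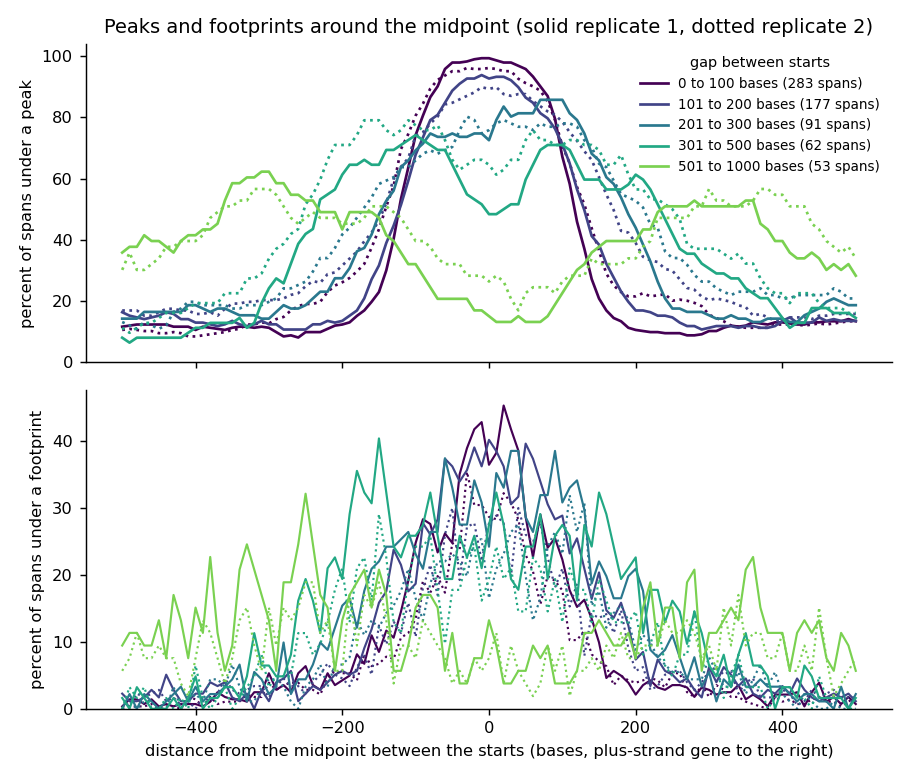
Percent of open spans under a peak (upper panel) and under a footprint (lower panel) at each distance from the midpoint between the starts (horizontal axis, bases, plus-strand gene to the right), by gap between the starts, with replicate 1 solid and replicate 2 dotted. Spans up to 300 bases have 1 central block, while those over 500 bases have 2 shoulders with a dip between them.

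Nearly all divergent peaks held a footprint, 98.5% in replicate 1 and 97.2% in replicate 2, against 96.6% and 93.7% of one-way peaks. The mean number per peak was 5.07 and 5.30, against 4.48 and 4.41, and per 1000 bases of peak 19.4 and 16.4, against 17.1 and 14.1. One-way peaks with a non-coding start the other way had 5.11 and 4.99 per peak, the former above and the latter below the divergent mean, and 18.6 and 15.2 per 1000 bases. Divergent peaks also had higher values, and the part of peak value in these differences was not tested. Within quartiles of peak value, the share with a footprint was lower in divergent than in one-way peaks, by 1.33 and 1.65 percentage points. Inside divergent peaks, footprints were denser between the starts, at 19.96 and 18.92 per 1000 bases, than on the transcribed sides, at 17.7 and 14.5.

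The sequence at divergent peak centres was GC-rich and held many CpGs. In the 200 bases at the centre the median GC content was 64.0% in both libraries, below the 66.5% of one-way peaks. The ratio of observed to expected CpG, which is low where CpGs have been lost in evolution, had medians of 0.884 and 0.871, against 0.847 and 0.855 in one-way and 0.331 in distal peaks of both libraries. The difference from one-way peaks was 0.027 ± 0.015 (SD, n = 2), and it had the opposite sign, at -0.022, against one-way peaks with a non-coding start the other way. It also fell with the gap, from 0.958 in the shortest spans to 0.759 in the longest in replicate 1.

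The exact TATA word was rare upstream of the most upstream annotated starts, which need not be the starts in use. The word TATAAA started 40 to 20 bases upstream of the start in 3 of 1489 genes of divergent pairs, or 0.201%, and in 525 of 19556 one-way genes, or 2.68%. Among genes with a shared peak the shares were 2 of 1313, or 0.152%, and 57 of 7219, or 0.790%. The 2 genes were Foxa3, a forkhead factor of liver and gut endoderm, and Hist1h2bg, a histone gene.

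Words of 14 factors or motifs were searched on both strands of the 200 bases at each centre. They were GCGCATGCG for NRF1, CCGGAAG for ETS, CCAATCA for NF-Y, AAGATGGC for YY1, GGGCGG for SP, TGACGTCA for CRE, CACGTG for MYC, CTCGCGAG for ZBTB33, TTTCCCGC for E2F, ACTACAAT for ZNF143, AGATAA for GATA, CCACACCC for KLF, TGACTCA for AP-1 and TATAAA for TATA. An NRF1 word can overlap its own reverse complement, and an SP word an E2F word, so that words on the same bases can count for both. A match describes the letters and is no evidence that a factor was bound.

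In percentage points, the ETS word showed the widest difference from one-way peaks among the 14 words. It was in 169 divergent peaks, or 23.8%, in replicate 1 and in 23.5% in replicate 2, against 16.8% and 15.8% of one-way and 3.30% and 3.10% of distal peaks. The difference from one-way peaks was 7.36 ± 0.52 percentage points (SD, n = 2). Within quartiles of peak value it was 5.68, and against one-way peaks with a non-coding start the other way 3.49. In replicate 1 the share fell with the gap between the starts, from 33.3% in spans of at most 100 bases to 7.89% over 500. Between them it was 22.3%, 19.2% and 15.3%. In the longest spans it was thus below the 16.8% of one-way peaks. A central window can hold both starts of a short span, while one-way peaks were defined by single starts, and ETS words centred on starts. The part of this in the differences for ETS and the other words was not tested.

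The CCAAT box word of NF-Y was in 14.3% and 12.4% of divergent and 10.4% and 8.96% of one-way peaks, and in 13.2% and 11.8% of those with a non-coding start the other way. The YY1 word was in 7.03% and 5.91%, against 4.17% and 4.08% of one-way peaks and 4.62% and 4.46% of those with a non-coding start the other way. The NRF1 word was in 5.06% and 4.50%, against 4.23% and 3.67% of one-way peaks. This last difference was small, at 0.832 percentage points with an SD of 0.0049, and within quartiles of peak value it had the opposite sign, at -0.483. The GC box word of SP was common everywhere and somewhat less so in divergent peaks, at 65.5% and 62.0% against 68.2% and 65.4%. The E-box word of MYC was in 9.001% and 8.158%, and in 9.01% and 8.40% of one-way peaks. The GATA word, of the factors that lead red cell genes, was in 2.25% and 1.97% of divergent peaks, 2.05% and 1.73% of one-way peaks, and 15.3% and 13.3% of distal peaks. At least 1 of the ETS, NF-Y, YY1 and NRF1 words stood in 43.9% of divergent and 32.4% of one-way peaks in replicate 1.

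**Figure D5:**
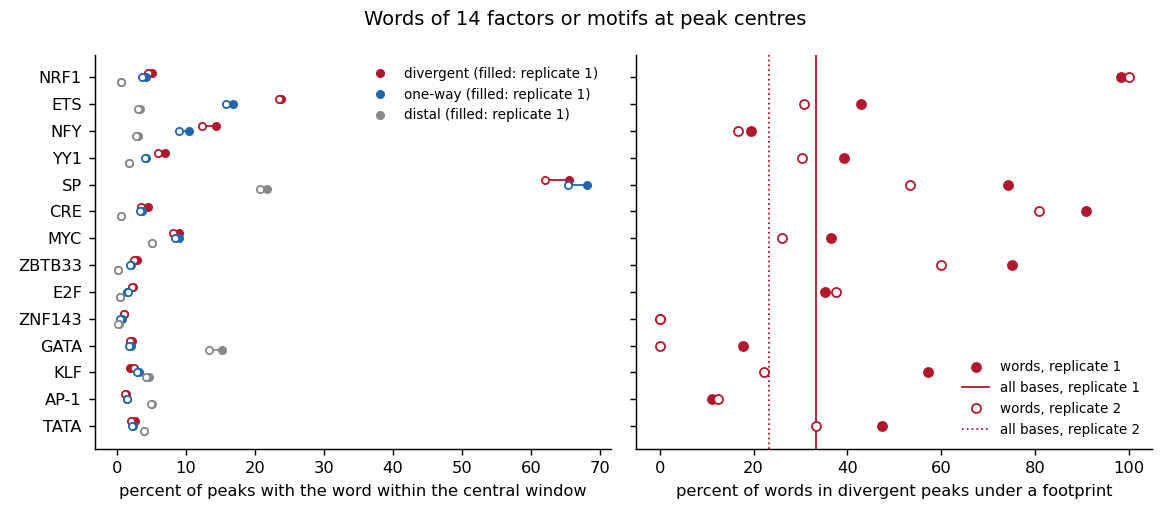
Percent of divergent, one-way and distal peaks with each of 14 words at the centre (left, horizontal axis) and percent of the words in divergent peaks that lie under a footprint (right, with lines for all bases of the same windows), filled for replicate 1 and open for replicate 2. ETS at 23.8% and 23.5% stands apart from one-way peaks, GATA is high in distal peaks, and NRF1 words are nearly all under footprints.

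The CCAAT, YY1, ETS and NRF1 words were placed as follows relative to the nearer start. The CCAAT box word lay upstream, with 90.7% and 89.2% of words between the starts and a median of 38.5 and 41 bases upstream of the nearer start. YY1 words lay downstream, at medians of 25.5 and 26.5 bases past the start, and 82.4% and 83.7% of them ran in the direction of the gene they stood in. In one-way peaks the YY1 word lay at 25.5 and 28.5 bases and ran with the gene in 79.4% and 78.9%. ETS words centred on the start itself, at a median of 0 and 1 base past it, and ran with the gene in 51.0% and 54.1%. NRF1 words lay 12 and 14 bases upstream of the nearer start. In one-way peaks they lay 35 and 34 bases upstream, but between paired starts a word cannot be farther from the nearer start than the middle of the gap, so these distances are not comparable.

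Under footprints the words differed further. In divergent peaks 33.3% and 23.4% of the bases of the central windows were under a footprint. Of the NRF1 words 61 of 62 were under one in replicate 1 and 56 of 56 in replicate 2. CRE words followed with 90.9% and 80.8%, ZBTB33 words with 75% and 60% and SP words with 74.2% and 53.4%. ETS words were nearer the background of all bases, at 42.9% and 30.7%, and YY1 words at 39.2% and 30.2%. The CCAAT box was under a footprint less often than the average base, in 19.5% and 16.7% of cases. In one-way peaks it was under one in 27.0% and 18.9%, with 28.2% and 19.3% of all bases covered.

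Peaks with the NRF1 word were higher than the other divergent peaks, with medians of 12.0 and 6.70 against 8.27 and 4.75. Those with the CCAAT box word had 11.6 and 5.54 against 7.86 and 4.66. Those with the ETS word had 7.73 and 4.62 against 8.80 and 4.87, and the 16 with a GATA word 5.24 and 3.02 against 8.51 and 4.84. The words of a peak were taken from replicate 1 for these medians.

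Gene families differed in how often their members stood in divergent pairs, set beside 6.79% of all protein-coding genes. Of the 1489 genes in pairs, 1313 were in a span with a shared peak, and the counts of open members below are to be read beside that share. The replication-dependent histone genes, whose H2A and H2B members are known to lie head to head, came first with 27 of 67, or 40.3%. In 13 pairs both genes were histones, and 10 of these had a shared peak. Their values were moderate, with a median of 5.66 and 3.58 over the 15 peaks of the family, below the 8.39 and 4.80 of all divergent peaks. Hist1h2bf/Hist1h2ad had 8.72 and 3.72, Hist1h2an/Hist1h2bp 8.05 and 4.91, Hist1h2ac/Hist1h2bc 7.81 and 5.34, and Hist1h2ae/Hist1h2bg 4.73 and 2.50. Hist1h2bq/Hist1h2ao, Hist1h2ap/Hist1h2br and Hist1h2ba/Hist1h2aa had no peak in either library. Histone genes are near copies of each other, and the sources used here do not say how reads that fit several copies were treated.

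Genes of DNA upkeep were frequent. Of 69 DNA repair genes 22, or 31.9%, were in a pair, and 20 of these were open, with median peak values of 10.1 and 5.52. Atm, the kinase that signals double-strand breaks, lies 307 bases from Npat, a regulator of histone transcription. The peak in their span had 21.7 and 8.35, and in replicate 1 it covered the Atm start and not that of Npat. Lig4, the ligase of end joining, had 15.5 and 9.59 with Abhd13, only 21 bases away. Mcm4, a subunit of the replicative helicase, lies 466 bases from Prkdc, the kinase of end joining, and its peak of 20.1 and 6.72 covered the Mcm4 start and not that of Prkdc. Of 49 DNA replication genes 9, or 18.4%, were in a pair, and all 9 spans were open. Among them Orc1, of the origin recognition complex, had 14.9 and 6.25 with Prpf38a, and Gins1 14.5 and 7.29, at the Abhd12 end of a 659 base span. Xrcc1, a scaffold of single-strand break repair, had no peak in the 171 bases that part it from Pinlyp. The nearest shared peak lay 792 bases away.

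Mitochondrial genes followed. Of 78 mitochondrial ribosomal protein genes 18, or 23.1%, and of 98 respiratory chain and ATP synthase genes, assembly factors included, 23, or 23.5%, were in a pair. Open were 16 and 22 of these. Mrpl49 had 17.2 and 8.22 with Fau, which encodes a cytosolic ribosomal protein fused to a ubiquitin-like one. Mrpl51 had 16.4 and 8.22 with the condensin subunit gene Ncapd2, and Mrps27 had 15.28 and 7.0004 with Ptcd2. Ndufaf8, an assembly factor of complex I, had 24.8 and 10.8 with Tepsin. Sdha, the flavoprotein of complex II, had 16.7 and 9.77 with Ccdc127. Rps28 and Ndufa7 start 10 bases apart and share a peak of 17.4 and 8.23. In replicate 1 it covered both starts, of a cytosolic ribosomal protein gene on one side and a complex I gene on the other. Ndufa5/Asb15 had no peak between the starts, and the nearest shared peak lay 353 bases away.

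Chaperones, with 6 of 29 or 20.7%, had the highest values of the families, with medians of 12.9 and 6.67. Hsp90b1, the HSP90 of the endoplasmic reticulum, had 20.3 and 8.48, and Cct5, a subunit of the cytosolic chaperonin, 15.4 and 8.72. Proteasome genes had 8 of 49 or 16.3% in pairs, all open, among them Psma2 with 14.2 and 6.89 and Psmc5 with 12.7 and 7.49. The Psma2 peak in replicate 1 covered the start of Mrpl32, its partner, and not that of Psma2. The tRNA synthetases had 5 of 38, or 13.2%, all open, with Yars at 11.6 and 4.37 and Sars2, beside the mitochondrial ribosomal protein gene Mrps12, at 8.13 and 6.46. Of 90 genes named as cytosolic ribosomal proteins 9, or 10%, were in a pair. Rpl7a had 21.4 and 9.25, and Rpl9 17.3 and 7.89 beside Lias. Rps2 had no peak in the 53 bases between it and Rnf151, and the nearest shared peak lay 1765 bases away.

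Among other large families, solute carriers had 17 of 343, or 4.96%, with Slc39a7, a zinc transporter, at 16.7 and 8.43, Slc25a32, a mitochondrial folate carrier, at 12.9 and 8.43 and Slc31a1, a copper transporter, at 11.6 and 5.64. The Slc31a1 peak in replicate 1 covered the start of Fkbp15, its partner, and not that of Slc31a1. Zinc finger genes named Zfp had 20 of 394, or 5.08%, with 15 open. Zfp654 had 24.1 and 8.65, Zfp526 13.8 and 6.97 and Zfp597 9.35 and 6.11. The Zfp654 peak, in the span with Cggbp1, covered neither start in replicate 1. Tmem genes, grouped by name alone, had 23 of 242, or 9.50%, with Tmem126b at 22.8 and 7.19, Tmem43 at 17.6 and 6.10, and Tmem209 at 17.4 and 7.14. Of 1466 olfactory and vomeronasal receptor genes 1 was in a pair, Vmn1r4, by an upstream start 83 bases from Nt5c3, with 5.67 and 4.45.

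Lists of cell type markers are short, and at the 6.79% of all protein-coding genes most would hold less than 1 paired gene. None of the 13 macrophage and myeloid, 9 megakaryocyte, 9 stellate and mesenchymal, 9 neuronal and glial or 9 lymphoid markers was in a pair. Of 36 erythroid genes only Urod, an enzyme of haem synthesis that all cells use, was in one. Its peak had 13.3 and 5.23 and lay at the Urod end of the 904 bases that part it from Hectd3. A second shared peak, of 1.95 and 1.44, covered the Hectd3 start. Of 26 hepatoblast and hepatocyte genes only Foxa3 was. Its peak of 9.41 and 4.33 covered the start of Sympk, a factor of RNA 3' end formation, 839 bases away, and not that of Foxa3. Of 8 endothelial genes 1, or 12.5%, was, namely Pecam1, and its span with Milr1 had no peak in either library.

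By chromosome the share of spans with a shared peak ran from 65% of 20 on the X chromosome and 75% of 32 on chromosome 10 to 98.1% of 52 on chromosome 8. Chromosome 11 held the most pairs, with 68.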

How the data were processed

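DNase-seq libraries of replicates 1 and 2 were analysed from the authors' deposited tables on mm10. Per the labels and the file headers, peaks, footprints and the false discovery rate were made for each library separately. The sources used here name no peak caller. The deposited peak value is a normalised signal, and values are whole multiples of 1 step, 0.0123 in replicate 1 and 0.0139 in replicate 2. A median divergent peak held 681 and 346 steps. Read depth is unknown, so no counting interval is given. The deposited footprint score is a constant, 0.01, so only positions were used. The deposited false discovery rate is an adjusted p-value (q-value type), listed below 0.05, and only its presence was used.

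Peaks on chromosomes 1 to 19, X and Y of each library's longer list were used. Of 44973 annotated start codons, 44940 read ATG in the genome used. A footprint counted for a peak if it overlapped it, and a word was under footprints if at least 50% of its bases were. Where several replicate 2 peaks overlapped a replicate 1 peak, the highest gave the value. Ratios of replicate 2 to replicate 1 were also adjusted by subtracting a running median, over 1001 shared peaks ordered by mean log value. The code was tested on simulated data with known pairs, peaks and words.

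With 1 group and no control, no test between conditions was possible. Differences between classes of peaks were taken within each library and are given over the 2 libraries without a test. Nothing says whether the biosamples came from separate embryos. The members, lists and words were chosen with earlier results of these data known. Named by rule were the 10 highest and 5 lowest peaks by mean rank, the 5 most extreme adjusted ratios each way, the 5 pairs nearest the limit on each side, the 5 longest spans with several peaks, and for each gene list up to 3 genes with the highest peak and up to 3 without a peak. Some items that this rule picks are not reported here. Of 307 list genes, 304 were found. Alternatives covered the peak list, overlap, gap, choice of start, gene set, comparison peaks and windows, and each library alone. Python 3.11.15, numpy 2.4.6, pandas 2.3.3 and scipy 1.17.1 were used.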

Additional observations from a re-analysis of the deposited data

How the results depend on the processing

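Shares of open spans below are of spans with a shared peak, and other values are means over both libraries, unless each library is taken alone. Differences are divergent minus one-way promoter peaks, in percentage points for the shares of peaks with a footprint or a word. Of 112 alternatives, 55 left a value within the spread between the libraries or, for the number of peaks, near 711, while 54 moved it further and 3 turned its sign. The number of divergent peaks stayed between 616 and 820. The means within quartiles of peak value were added after the data were seen.

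With the shorter lists, 86.9% of spans were open, the log2 ratio of medians was 0.42, and the differences were 0.25 bases in width, 0.733 for footprints, 0.690 for NRF1 and 6.496 for ETS. With the upper 50% of peaks they were 86.4%, 0.34, and 0.334 for footprints, 0.581 for NRF1 and 6.18 for ETS. An overlap of 50% gave 78.7% open, 10 bases in width and 0.898 for NRF1. Starts at most 500 bases apart gave 89.5% open, 0.0455 in CpG ratio, 1.33 for NRF1 and 9.09 for ETS. Starts at most 2000 bases apart gave 85.4% open, 0.687, 6.37, and a peak centre 67.9 bases from the midpoint. Principal transcripts gave 10 bases in width, 0.917 for NRF1 and 7.99 for ETS. Without predicted genes, 89.5% were open, with 0.872 for NRF1 and 6.71 for ETS.

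Against one-way peaks within 1000 bases the differences were 4.45 for footprints, 0.0430 in CpG ratio, 1.18 for NRF1 and 8.69 for ETS. Against those with a non-coding start the other way, the log2 ratio was 0.27, and the differences were 0.845 for footprints, 0.323 for NRF1, 3.49 for ETS and -0.0224 in CpG ratio, of opposite sign. Against those with no such start NRF1 was 0.879. Within quartiles of CpG ratio NRF1 was 0.478 and ETS 6.65. Within quartiles of peak value footprints were -1.49 and NRF1 -0.483, both of opposite sign, with ETS at 5.68, 10.06 bases in width and 0.01004 in CpG ratio. A window of 400 bases gave 0.988 for NRF1 and 9.07 for ETS.

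With each library alone, and so without the need for a shared peak, 88.2% to 89.7% of spans were open, the log2 ratio was 0.50 to 0.78, and the differences were 0 to 20 bases in width, 3.97 to 4.51 for footprints, 0.0215 to 0.0461 in CpG ratio, 0.879 to 0.983 for NRF1 and 7.93 to 8.41 for ETS. The cause was not tested for any of these. The ETS difference and the log2 ratio of medians were above 0 under every alternative run. None of the alternatives counted words per start. An SD over 2 libraries is a spread of 2 values. Read depth is unknown. No paired analysis was possible between groups because there is only 1 group, while the differences between classes of peaks were taken within each library.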
